A study of Mus musculus with 18 samples.

Results

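Dazl, Boll, Ddx25, Ybx2, Ybx3, Papolb, Rbmxl2, Pabpc2, Msi1 and Cpeb1 encode RNA-binding and translation control proteins of male germ cells. They were taken by symbol from the gene table through their NCBI gene numbers, with no limit on their values. The list was chosen with earlier results of these data known. All 10 were found among the 22657 genes of the table, and all 10 were among the 15790 genes tested, which reached 1 FPKM (fragments scaled to transcript length and to the mapped fragments of the sample) in 3 or more samples. FPKM is a level per transcript length, so levels of different genes can be set side by side.

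The 18 samples were whole cultured testes of ICR mice, 3 in each of 6 groups. Mice of the B0, BA10 and BA50 groups received busulfan, a DNA-alkylating agent toxic to proliferating spermatogonia, once at 3 weeks of age (40 µg/g body weight), and their testes were taken 2 weeks later. Age-matched mice without busulfan gave the A0, A10 and A50 groups, called untreated below because they had no busulfan. All testes were then kept for 48 h in DMEM/F12 medium with 10% FBS. The medium held no alginate oligosaccharides (AOS) in A0 and B0, 10 µg/mL in A10 and BA10, and 50 µg/mL in A50 and BA50. AOS was therefore given only in culture, after busulfan had acted in the animal. The study names 6 testes per treatment, repeated 3 times; whether testes were pooled within a sample is not given in the sources used here, so p-values measure the spread between these samples, which may be partly technical.

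Male germ cells make many mRNAs well before the protein is needed, because transcription stops as the spermatid nucleus is compacted. The mRNAs are held in storage particles by Y-box proteins, and their use depends on the length of the poly(A) tail and on proteins that bind it. Dazl and its relative Boll bind mRNAs and promote their translation, Dazl from the spermatogonia onward and Boll mainly in meiosis and after it.

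The tissue was checked against marker genes of 12 cell types. In untreated testes the 10 spermatocyte markers summed to 262 to 413 FPKM, against 40.6 to 86.6 FPKM after busulfan, and the groups did not overlap. The 10 spermatogonia markers summed to 95.05 to 179.5 FPKM without busulfan and 56.7 to 111 FPKM with it, which overlap, and the BA50 samples (81.9 to 111 FPKM) lay above the B0 samples (56.7 to 75.1 FPKM). Within that list the premeiotic gene Stra8, picked after its values were seen, was between 14.2 and 35.4 FPKM without busulfan and at most 0.12 FPKM with it. Sall4 was also under 1 FPKM in all samples of B0, BA10 and BA50, and Dmrt1 in all samples of BA10 and BA50. Neither was under 1 FPKM in all samples of any untreated group. The overlap of the sums does not show how each other marker moved, and Stra8 need not stand for them. Nanos2 and Nanos3 were under 1 FPKM in all samples and add little to the sums. The 12 spermatid markers summed to 2609 to 5347 FPKM without busulfan and 2555 to 11666 FPKM with it, and these ranges overlapped. The samples are of whole tissue, so fewer cells of a type and less RNA per cell cannot be told apart. Replicate 3 of A10 stood apart from its group, with a correlation of 0.929 and 0.941 to the other A10 samples across genes, and its 8 Sertoli cell markers summed to 1031 FPKM against 2391 to 4171 FPKM in the other untreated samples. The 3 B0 samples had the highest sums of the 6 fat cell markers (196 to 804 FPKM, against 42.4 to 138 FPKM elsewhere) and of the 5 simple epithelium markers (79.4 to 203 FPKM, against 17.0 to 46.6 FPKM). The part of these differences in the results below was not tested beyond the values given beside them.

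Promoter sequences are shown first for 4 members, because 8 members had an entry in the RefSeq table (GRCm38.p6, 250 bases before and 50 after each start) and most of them carried the same short motif near the start. The motif CCAAT, read on either strand, was found in 6 of the 10 promoters of these 8 members, 1 each of Boll, Dazl, Ddx25, Papolb, Rbmxl2 and Ybx2, and in 37.4% of all 32851 promoters of the same length. Boll and Ybx2 each have another promoter in the table, without it. In the sequences below, written 5′ to 3′ along the gene's strand, capitals mark CCAAT or its reverse ATTGG, and in Dazl also the core TGACG of the cAMP response element (here as its reverse CGTCA). Dazl (chr17:50293571-50293870, minus strand) and Ybx2 (chr11:69935649-69935948, plus strand) represent the member with the largest difference after busulfan and an abundant storage protein. Boll (chr1:55362679-55362978, minus strand) and Papolb (chr5:142530027-142530326, minus strand) represent a member that fell and one that did not pass the test.
Dazl: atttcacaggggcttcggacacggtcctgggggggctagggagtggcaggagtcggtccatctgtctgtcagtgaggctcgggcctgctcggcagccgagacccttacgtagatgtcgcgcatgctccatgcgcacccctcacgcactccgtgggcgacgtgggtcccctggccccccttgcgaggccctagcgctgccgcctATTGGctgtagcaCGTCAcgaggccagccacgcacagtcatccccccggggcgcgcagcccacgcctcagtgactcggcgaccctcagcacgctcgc
Boll: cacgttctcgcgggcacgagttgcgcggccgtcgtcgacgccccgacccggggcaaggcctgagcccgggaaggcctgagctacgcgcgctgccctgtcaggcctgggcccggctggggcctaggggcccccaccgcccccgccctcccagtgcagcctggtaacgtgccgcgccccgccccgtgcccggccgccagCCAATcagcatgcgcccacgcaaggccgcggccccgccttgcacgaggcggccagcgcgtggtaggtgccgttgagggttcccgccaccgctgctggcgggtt
Ybx2: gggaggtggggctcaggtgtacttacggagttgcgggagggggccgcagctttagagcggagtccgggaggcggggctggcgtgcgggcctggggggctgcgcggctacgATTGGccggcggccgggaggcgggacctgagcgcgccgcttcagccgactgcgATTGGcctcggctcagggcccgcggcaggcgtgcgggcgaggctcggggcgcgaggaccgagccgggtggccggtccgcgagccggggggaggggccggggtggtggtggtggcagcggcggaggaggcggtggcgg
Papolb: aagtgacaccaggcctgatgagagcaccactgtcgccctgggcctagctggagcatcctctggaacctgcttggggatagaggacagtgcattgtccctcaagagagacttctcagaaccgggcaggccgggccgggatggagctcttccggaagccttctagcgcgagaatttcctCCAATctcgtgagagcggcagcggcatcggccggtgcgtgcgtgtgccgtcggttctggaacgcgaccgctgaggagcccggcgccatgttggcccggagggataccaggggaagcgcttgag

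The CCAAT motif lay 47 bases before the start in Dazl, 53 in Boll, 73 in Papolb and 119 in Rbmxl2, and only 9 in Ddx25. The printed Ybx2 promoter held it at 87 and 140 bases before the start, whereas the other Ybx2 promoter did not hold it. The core TGACG was found in Dazl, 34 bases before the start, and in Cpeb1, 52 bases before it, against 20.8% of all promoters, and the full element TGACGTCA was found in none of the 8 members (1.79% of all). The motif GCATGCGC, bound by NRF1, was found in Boll and Dazl (2.71% of all promoters), the E-box CACGTG in Boll, Cpeb1, Ddx25 and Rbmxl2 (7.15%; for Boll in the promoter not printed, 9 bases before its start), and the Y-box CTGATTGG in Boll alone (4.10%). The motif TATAAA was found in Cpeb1 alone (13.6%) and TTCCCGC, an E2F motif, in Boll alone (4.60%). These matches describe the letters of the windows only.

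Papolb, Rbmxl2 and Pabpc2 each have 1 exon in GENCODE vM21 on GRCm38, unlike the other 7 members, which have 9 to 15 exons. Dazl (chr17:50279395-50293636, minus strand) has 11 exons and a coding length of 894 bases, and Boll (chr1:55248658-55363469, minus strand) has 10 exons and 879 coding bases. Ybx2 (chr11:69935796-69941605, plus strand) has 9 exons, and Ybx3 (chr6:131364855-131388476, minus strand) has 10. Papolb (chr5:142525838-142530076, minus strand) shared 16 of its 4190 windows of 50 bases with Papola, and Rbmxl2 (chr7:107209445-107210916, plus strand) shared 2 of 1423 with Lims2. The other 8 members shared none, and no member shared a window of 100 bases with another gene, so a near-identical copy was found for no member beyond these windows.

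The members differed widely in level. In A0 the order by mean was Ybx3 (383 ± 71.7 FPKM, SD, n = 3), Ybx2 (354 ± 66.9), Pabpc2 (129 ± 26.9), Ddx25 (122 ± 25.0), Papolb (92.2 ± 22.0), Dazl (62.9 ± 1.91), Boll (30.1 ± 6.27), Msi1 (18.1 ± 1.46), Cpeb1 (10.5 ± 0.67) and Rbmxl2 (8.30 ± 0.80). The ranges of Ybx3 and Ybx2 overlapped, as did those of Pabpc2 with Ddx25 and of Ddx25 with Papolb, and all other neighbours in the order were apart. In B0 the same 5 genes led, again with Ybx3 and Ybx2 overlapping, but Dazl had gone from the 6th to the 9th place (4.70 ± 1.498 FPKM), below Msi1 (13.4 ± 2.31), Boll (12.7 ± 2.79) and Cpeb1 (10.0 ± 0.28). In BA10 and BA50 Dazl was the lowest of the 10 members by mean, though its range overlapped that of Rbmxl2 in both groups.

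**Figure D1:**
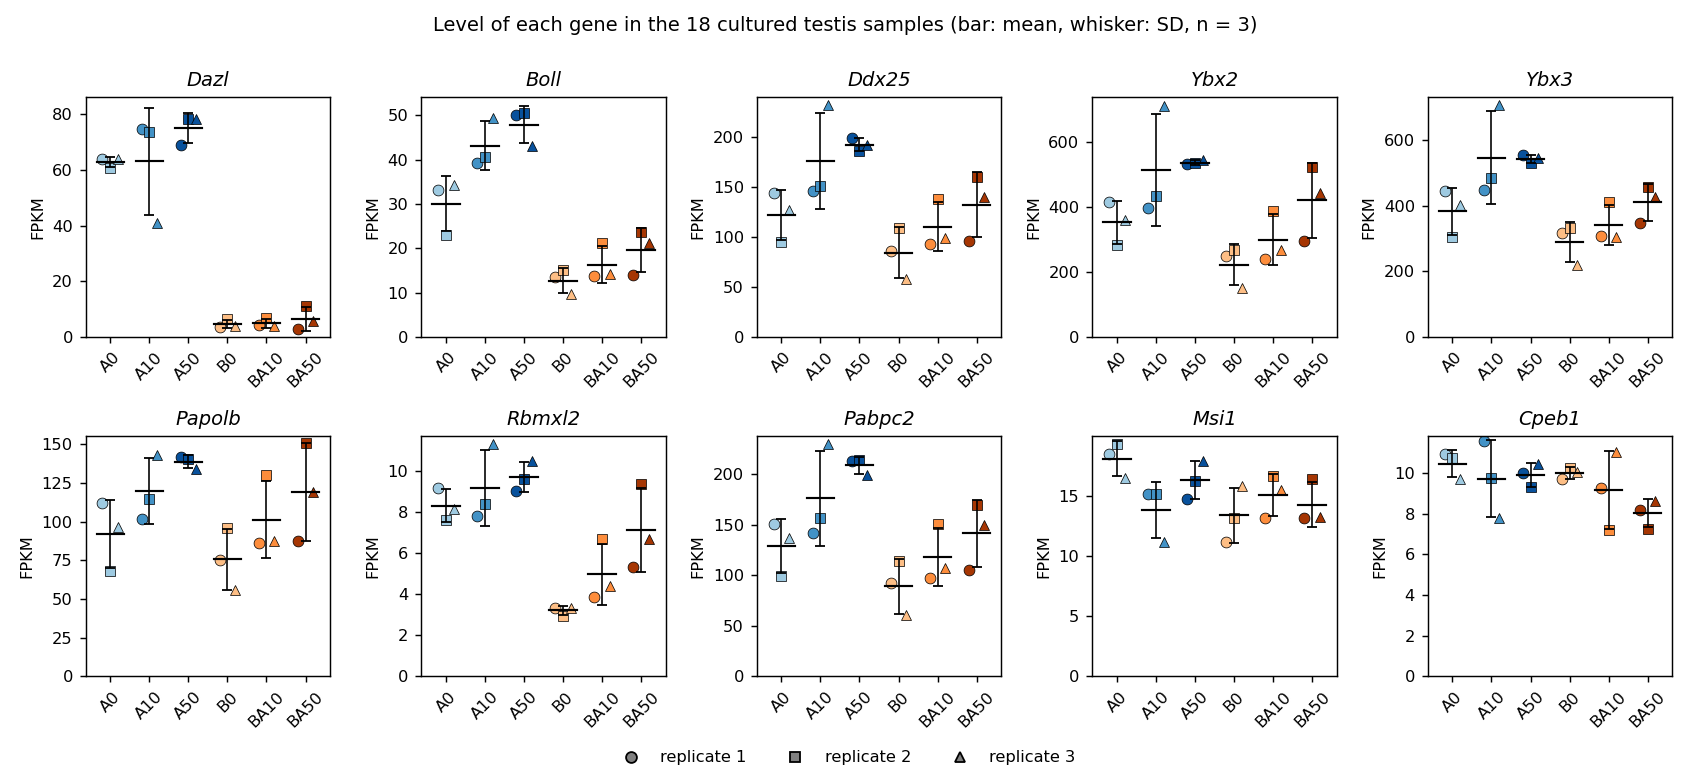
FPKM of each of the 10 members in the 18 samples; points are single samples, the marker shape gives the replicate number, bars are means and whiskers SDs (n = 3). Dazl was between 2.72 and 11.2 FPKM in all 9 busulfan samples and between 40.9 and 78.4 FPKM in all 9 untreated ones, whereas the ranges of the other 9 members overlapped between the 9 untreated and 9 busulfan samples.

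The first question was how busulfan in the animal changed these mRNAs. Differences were tested with limma on log2(FPKM + 1) over all 18 samples, with Benjamini-Hochberg adjustment over the 15790 genes. A gene was called at an adjusted p of at most 0.001 and a log2 difference of at least 1. The study set the same limits on another test, DEGseq on RPKM values, so its counts of genes and those here are not like for like. Dazl and Rbmxl2 were called lower in B0 than in A0, where 2.49% of all tested genes were called lower. Dazl and Boll were called lower in BA10 than in A10 (3.00% of all genes), in BA50 than in A50 (3.36%) and in the average of the 3 comparisons (3.52%). No member was called higher in any of these comparisons. The fold changes below are ratios of group means of FPKM, and log2 values are differences on the log2(FPKM + 1) scale, which understates the change of low genes.

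Dazl, the DAZ family protein needed for germ cell entry into meiosis, was 64.1, 60.7 and 63.9 FPKM in A0 and 3.68, 6.42 and 4.0 FPKM in B0. It was 74.7, 73.7 and 40.9 FPKM in A10 and 4.13, 6.82 and 3.84 FPKM in BA10, and 69.0, 78.4 and 78.2 FPKM in A50 and 2.72, 11.2 and 5.62 FPKM in BA50. The groups did not overlap at any AOS level, and the lowest untreated value was that of A10 replicate 3. The mean of Dazl was 13.4-fold lower in B0 than in A0, 12.8-fold lower in BA10 than in A10 and 11.6-fold lower in BA50 than in A50. The log2 difference was -3.52 (SE 0.34, limma adjusted p = 5.3e-06) in B0 against A0, -3.42 (adjusted p = 5.73e-06) in BA10 against A10, -3.51 (adjusted p = 3.52e-06) in BA50 against A50, and -3.48 (SE 0.20, adjusted p = 3.06e-09) on average. An exact permutation test within AOS levels gave p = 0.00025 (two-sided, 8000 arrangements), the smallest p these arrangements allow. The calls in BA10 against A10 and in BA50 against A50 missed the limit when only the groups compared were fitted (adjusted p = 0.00181 and 0.00259), in fits of 6 samples each with fewer degrees of freedom. Without A10 replicate 3 the adjusted p in BA10 against A10 was 9.17e-06.

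Boll, the DAZ relative that acts at and after meiosis, was 33.1, 22.9 and 34.4 FPKM in A0 and 13.5, 15.0 and 9.60 FPKM in B0. It was 39.2, 40.7 and 49.5 FPKM in A10 against 13.7, 21.1 and 14.2 FPKM in BA10, and 50.1, 50.6 and 43.1 FPKM in A50 against 14.1, 23.8 and 21.1 FPKM in BA50. Busulfan samples were below untreated ones at each AOS level, and the overlap over all 18 samples came from A0 replicate 2, at 22.9 FPKM, and BA50 replicate 2, at 23.8 FPKM. The means were 2.37-fold, 2.64-fold and 2.44-fold lower at 0, 10 and 50 µg/mL AOS. The average log2 difference was -1.27 (SE 0.13, limma adjusted p = 1.14e-06). By comparison it was -1.18 in B0 against A0, which missed the limit (adjusted p = 0.00161), -1.37 in BA10 against A10 (adjusted p = 0.000381) and -1.27 in BA50 against A50 (adjusted p = 0.000591). Each of these 2 calls was lost on leaving out any of 5 of its 6 libraries (limma adjusted p up to 0.00312 and 0.00402), A10 replicate 3 included (0.00255). They were kept without BA10 replicate 2 and without BA50 replicate 2, respectively, and the call of the average was kept on leaving out each library in turn. Both were lost when only the groups compared were fitted (adjusted p = 0.0103 in BA10 against A10 and 0.00711 in BA50 against A50), and the latter also with the replicate number as a block (0.00135).

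The levels of Dazl and Boll were also set against each other, with no test. Within a sample the ratio of Dazl to Boll FPKM was 2.15 ± 0.43 in A0, 1.51 ± 0.60 in A10 and 1.58 ± 0.22 in A50 (SD, n = 3). It was 0.37 ± 0.09 in B0, 0.30 ± 0.03 in BA10 and 0.31 ± 0.14 in BA50. Every untreated sample was at 0.83 or above, the lowest being A10 replicate 3, and every busulfan sample at 0.47 or below, so Dazl was the more abundant of the pair in 8 of the 9 untreated samples and Boll in all 9 busulfan samples.

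Rbmxl2, the intronless relative of the splicing regulator Rbmx that is expressed in meiotic and later germ cells, was 9.17, 7.60 and 8.12 FPKM in A0 and 3.33, 2.95 and 3.33 FPKM in B0. The groups were apart and the B0 samples differed little among themselves. The mean was 2.59-fold lower in B0 (log2 difference -1.14, SE 0.19, limma adjusted p = 0.0006). The difference was smaller in BA10 against A10, at -0.78 (adjusted p = 0.00823), and in BA50 against A50, at -0.43 (adjusted p = 0.128), where BA50 held 5.34, 9.34 and 6.69 FPKM and A50 9.04, 9.62 and 10.5 FPKM. The average was -0.78 (SE 0.11, adjusted p = 3.48e-05), under the log2 limit of 1. The call in B0 against A0 was lost on leaving out each of the 6 libraries in turn (adjusted p 0.00174 to 0.00464), with no filter (0.00104), with the replicate number as a block (0.00101), under quantile normalization (0.00327) and when only the groups compared were fitted (0.00237). The 3 B0 samples were also those with high fat cell and epithelial markers, whose part in this difference was not tested.

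The storage and helicase members were lower on average at an adjusted p of 0.05 and under the log2 limit of 1. Ybx2, the germ cell Y-box protein that packages stored mRNAs, was 416, 283 and 361 FPKM in A0 and 249, 267 and 149.9 FPKM in B0. Its log2 difference was -0.70 in B0 against A0 (limma adjusted p = 0.125), -0.76 in BA10 against A10 (adjusted p = 0.0691) and -0.39 in BA50 against A50 (adjusted p = 0.354). Each of these groups lay below its untreated counterpart without overlap. The average over AOS levels was -0.62 (SE 0.16, adjusted p = 0.00714). Ybx3, a Y-box relative also expressed in other tissues, was 444, 304 and 401 FPKM in A0 and 316, 331 and 219 FPKM in B0, which overlap, and its average difference was -0.49 (SE 0.12, adjusted p = 0.00408). Ddx25, a testis helicase that carries mRNAs to the cytoplasm and takes part in storage, was 145, 95.3 and 127 FPKM in A0 and 86.1, 109 and 57.8 FPKM in B0, and its average difference was -0.60 (SE 0.15, adjusted p = 0.00512).

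Of the poly(A) members, only Pabpc2 passed an adjusted p of 0.05 on average. Pabpc2, an intronless poly(A)-binding protein of germ cells, was 151, 98.8 and 137 FPKM in A0 and 92.2, 114 and 60.2 FPKM in B0, with overlap, and the average difference was -0.57 (SE 0.15, limma adjusted p = 0.00729). Papolb, the testis poly(A) polymerase that lengthens tails in the cytoplasm of spermatids, was 112, 68.4 and 96.5 FPKM in A0 and 75.2, 95.7 and 55.9 FPKM in B0, with overlap at every AOS level. Its average log2 difference was -0.26 (95% interval -0.56 to 0.03, adjusted p = 0.149), which does not exclude a fall of the size seen for Ybx3.

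Msi1, an mRNA-binding translational repressor of spermatogonia and somatic cells of the testis, was 18.4, 19.4 and 16.5 FPKM in A0 and 11.2, 13.1 and 15.8 FPKM in B0, and these groups were apart. The log2 difference was -0.42 (limma adjusted p = 0.0721) there, 0.13 (adjusted p = 0.576) in BA10 against A10 and -0.18 (adjusted p = 0.411) in BA50 against A50. Under quantile normalization the B0 and A0 ranges of Msi1 overlapped. Cpeb1, which binds the cytoplasmic polyadenylation element of mRNAs, was 11.0, 10.8 and 9.72 FPKM in A0 and 9.70, 10.3 and 10.1 FPKM in B0. Its average difference was -0.14 (95% interval -0.31 to 0.03, adjusted p = 0.189), so a fall of the size of that of Dazl or Boll lies outside the interval.

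At a limit of an adjusted p of 0.05 with no limit on size, 7 of 10 members were lower on average over AOS levels (Dazl, Boll, Ddx25, Ybx2, Ybx3, Rbmxl2 and Pabpc2), beside 24.8% of all genes. In single comparisons 3 members passed in B0 against A0 (12.3% of all genes), 4 in BA10 against A10 (15.2%) and 2 in BA50 against A50 (16.2%). Members whose groups were apart and lower numbered 5 in B0 against A0 (22.7% of all genes), 6 in BA10 against A10 (20.2%) and 7 in BA50 against A50 (25.7%). Over all 9 busulfan and 9 untreated samples only Dazl was apart (9.66%). The median log2 difference of the members was -0.56 in B0 against A0, beside -0.04 for all genes, and -0.58 on average over AOS levels, beside 0.01 for all genes. With 3 samples against 3 an exact permutation test cannot go below p = 0.1.

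**Figure D2:**
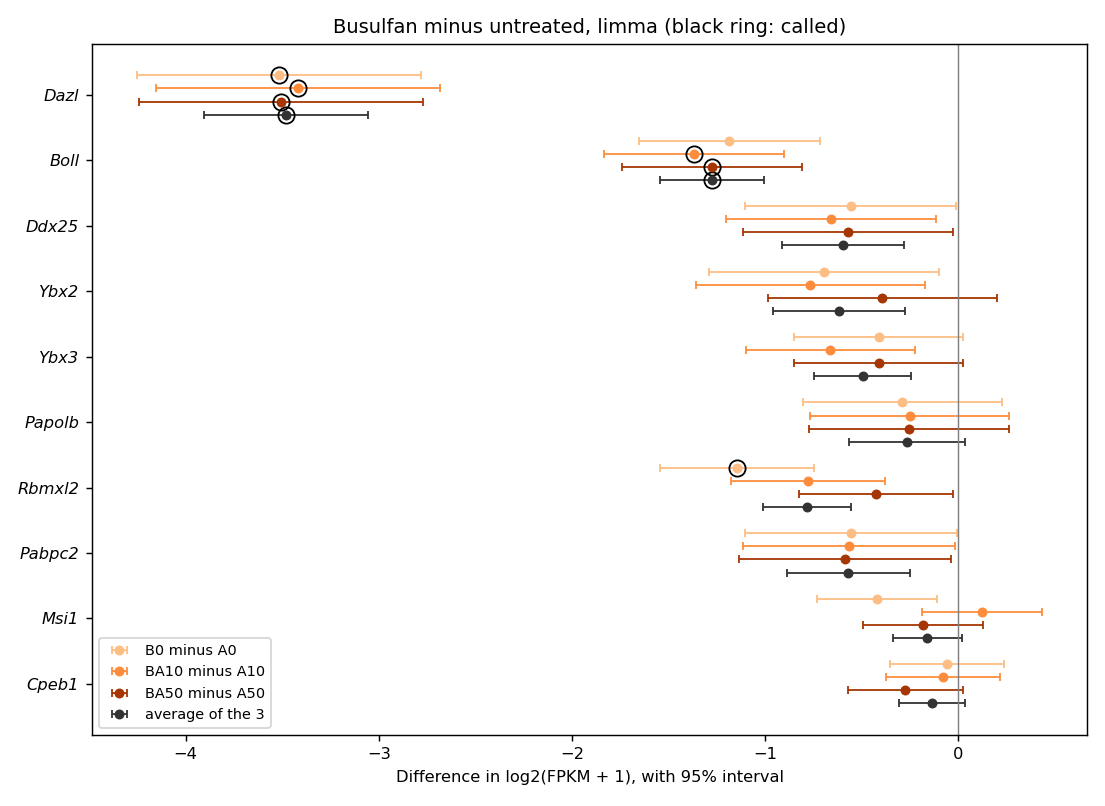
Log2 difference of each member, busulfan minus untreated, from limma on log2(FPKM + 1), with 95% intervals; the colours are the 3 AOS levels, black points their average, and rings mark called genes. Dazl stood near -3.5 in each comparison, Boll near -1.3, and Papolb, Msi1 and Cpeb1 had average intervals that held 0.

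The second question was whether AOS in the medium changed the members without busulfan. No member was called, and none passed an adjusted p of 0.05, in A10 or A50 against A0, where 0 of 15790 genes (0%) passed either limit by limma. Before adjustment, limma gave p below 0.05 for 3 members in A10, Boll and Ybx3 higher and Msi1 lower. Beside them stood 712 higher (4.51% of all) and 1693 lower genes (10.7%). In A50 it did so for 6 members, all higher (Boll, Ddx25, Ybx2, Ybx3, Papolb and Pabpc2). There 1555 genes were higher (9.85%) and 916 lower (5.8%). In A50, Dazl, Boll, Ddx25, Ybx2, Ybx3, Papolb and Pabpc2 lay above A0 without overlap, 7 of 10, beside 17.6% of all genes. Ybx2 was 532, 535 and 546 FPKM in A50 and 283 to 416 FPKM in A0, 1.52-fold higher by mean (log2 difference 0.62, SE 0.28, limma adjusted p = 0.309). Pabpc2 was 213, 214 and 199 FPKM in A50 and 98.8 to 151 FPKM in A0, with a log2 difference of 0.71 (SE 0.26, adjusted p = 0.253), and Boll differed by 0.67 (SE 0.22, adjusted p = 0.22). The SDs in A50 were smaller than in A0 for these 3 genes, 7.12 against 66.9 FPKM for Ybx2, 8.35 against 26.9 FPKM for Pabpc2 and 4.17 against 6.27 FPKM for Boll. The 10 spermatocyte markers summed to 378 to 413 FPKM in A50 and 262 to 316 FPKM in A0, and their part in the difference was not tested.

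In A10, 3 members (Boll, Ddx25 and Ybx3) were apart from and above A0, beside 7.81% of all genes, and Msi1 was apart and below, beside 12.2%. Replicate 3 of A10 held the highest value of the 18 samples for Ddx25 (232 FPKM), Ybx2 (713 FPKM), Ybx3 (707 FPKM), Pabpc2 (229 FPKM) and Rbmxl2 (11.3 FPKM). It also held the lowest Msi1 (11.1 FPKM) and the lowest untreated Dazl and Cpeb1 (40.9 and 7.81 FPKM). Without that library the log2 difference of Dazl turned from -0.05 to 0.24 and that of Rbmxl2 from 0.12 to -0.03, so neither direction can be read from A10.

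The third question was whether AOS changed the members after busulfan. No member was called, and none passed an adjusted p of 0.05, in BA10 or BA50 against B0, where 0.0253% and 0.0950% of all genes passed that limit and 0% the stricter one. Before adjustment, limma gave p below 0.05 for Rbmxl2 alone in BA10, where it was higher, beside 298 higher (1.89% of all) and 500 lower genes (3.17%). In BA50 it did so for 7 of 10 members, all higher (Boll, Ddx25, Ybx2, Ybx3, Papolb, Rbmxl2 and Pabpc2), beside 2006 higher (12.7% of all) and 1835 lower genes. These 7 members were each higher in BA50 than in B0 in all 3 same-numbered pairs of samples. They were picked by that same comparison, so the direction adds no separate support. The labels give no basis for pairing, though the deviations of these pairs correlated (r = 0.138 to 0.562 across genes). With the number as a block none of the 7 passed a limma adjusted p of 0.05 (0.119 to 0.184).

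Rbmxl2 was the member with the smallest adjusted p. It was 3.33, 2.95 and 3.33 FPKM in B0, 3.88, 6.66 and 4.37 FPKM in BA10 and 5.34, 9.34 and 6.69 FPKM in BA50, so both AOS groups lay above B0 without overlap. The mean was 2.22-fold higher in BA50 than in B0, with a log2 difference of 0.92 (SE 0.19, limma adjusted p = 0.0806). Without BA50 replicate 1 the adjusted p was 0.0365 and without BA50 replicate 2 it was 0.475, the lowest and the highest on leaving out 1 library. In BA10 the difference was 0.48 (adjusted p = 0.749). Rbmxl2 was the 1 member apart and higher in BA10 (3.64% of all genes), and Ybx2, Ybx3 and Rbmxl2 were the 3 in BA50 (11.2%). Ybx2 was 295, 523 and 445 FPKM in BA50 and 149.9 to 267 FPKM in B0 (log2 difference 0.92, SE 0.28, adjusted p = 0.111).

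Dazl was 3.68, 6.42 and 4.0 FPKM in B0 and 2.72, 11.2 and 5.62 FPKM in BA50, with a log2 difference of 0.26 (95% interval -0.47 to 1.00, adjusted p = 0.644), and without BA50 replicate 2 the value was -0.17. Cpeb1 lay below B0, at 8.21, 7.27 and 8.65 FPKM in BA50 against 9.70 to 10.3 FPKM in B0, without overlap (13.5% of all genes), with a log2 difference of -0.29 (adjusted p = 0.218). The 12 spermatid markers summed to 2555 to 3702 FPKM in B0 and 5429 to 11666 FPKM in BA50, and the fat cell and epithelial markers moved the other way, as given above. The part of these differences in the member values was not tested.

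The change with AOS was not shown to differ between busulfan and untreated testes. No member passed an adjusted p of 0.05 in either test of the difference, where 0% of all genes passed and, at an unadjusted p under 0.05, 285 were higher and 342 lower at 10 µg/mL and 462 higher and 530 lower at 50 µg/mL. The member with the smallest p at 50 µg/mL was Rbmxl2, whose log2 change was 0.72 larger after busulfan (SE 0.26, unadjusted p = 0.0163, adjusted p = 0.688). At 10 µg/mL it was Msi1, at 0.54 (SE 0.21, limma unadjusted p = 0.0184, adjusted p = 0.91). Replicate 3 of A10 held the lowest Msi1, and the value ran from 0.41 to 0.66 with 1 library left out.

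**Figure D3:**
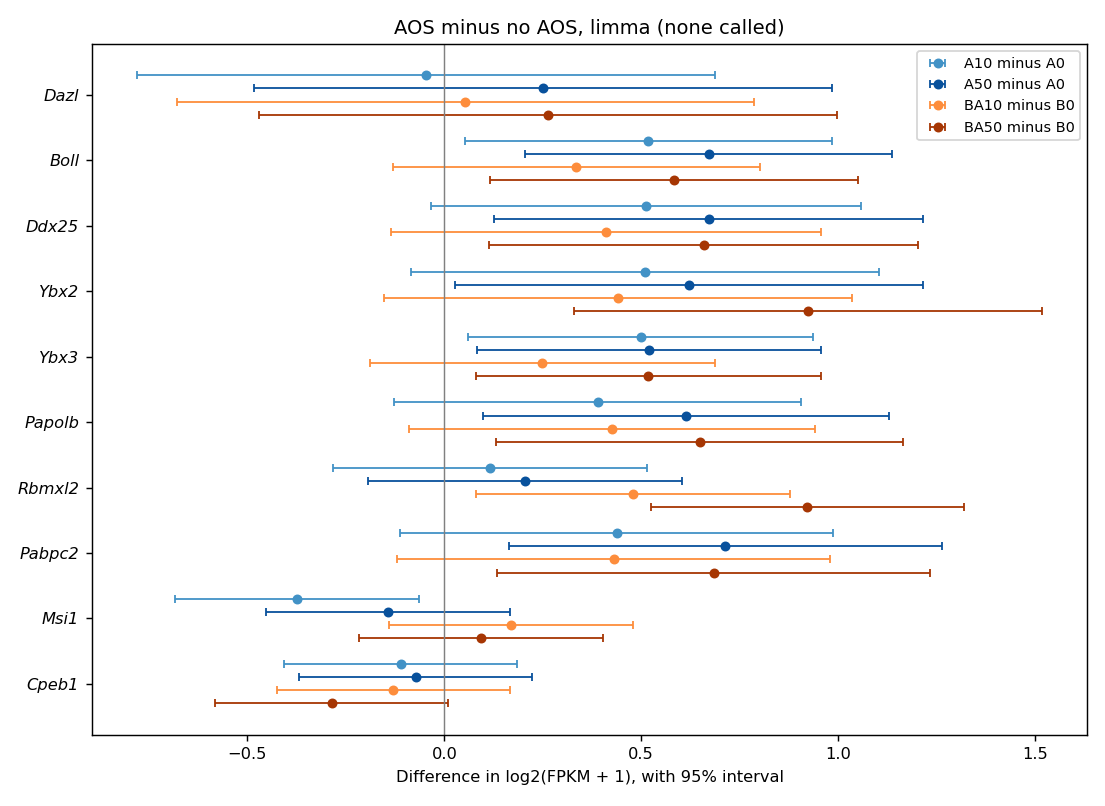
Log2 difference of each member, AOS minus no AOS, from limma on log2(FPKM + 1), with 95% intervals; blue points are without busulfan (A10 and A50 minus A0), orange and brown points after it (BA10 and BA50 minus B0). All points for Boll, Ddx25, Ybx2, Ybx3, Papolb and Pabpc2 were between 0.25 and 0.92, those for Dazl had wide intervals around 0, and none was called.

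The relatives of the members show how far the pattern held within a family. Of 14 relatives tested, 5 were lower and 1 higher on average at an adjusted p of 0.05, beside 24.8% lower and 13.3% higher of all genes. Of the lower ones 1 was called, Pabpc6, a testis poly(A)-binding relative of Pabpc2, beside 3.52% of all genes called lower. Pabpc6 was 61.6, 44.0 and 71.2 FPKM in A0 and 9.97, 18.5 and 8.74 FPKM in B0, with an average log2 difference of -2.14 (SE 0.16, limma adjusted p = 4.68e-08), beside -0.57 for Pabpc2. The broadly expressed Pabpc1 differed by -0.56 (adjusted p = 5.17e-05). Papolg, a nuclear poly(A) polymerase related to Papolb, differed by -0.59 (SE 0.06, adjusted p = 1.29e-06), and Ybx1, the broadly expressed Y-box protein, by -0.33 (SE 0.09, adjusted p = 0.00874). The intervals of Papola, the somatic relative of Papolb, and of Rbmxl1 held 0 (0.04, 95% interval -0.06 to 0.13, and -0.08, 95% interval -0.26 to 0.10). Msi2, the relative of Msi1, was higher on average (0.43, SE 0.13, adjusted p = 0.0168), while Msi1 was not lower at that limit. Ddx19b, a helicase related to Ddx25, passed both limits in BA50 against A50 (log2 difference -1.11, adjusted p = 3.11e-06), its average of -0.99 falling just short of the size limit.

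Ratios of members to these relatives were taken within each sample. The ratio of Ybx2 to Ybx1 was 0.66 ± 0.07 in A0, 0.76 ± 0.07 in A10 and 0.81 ± 0.01 in A50, and 0.48 ± 0.07 in B0, 0.61 ± 0.12 in BA10 and 0.77 ± 0.16 in BA50. The ratio of Rbmxl2 to Rbmxl1 was 0.26 ± 0.04 in A0, 0.36 ± 0.17 in A10 and 0.34 ± 0.04 in A50, and 0.11 ± 0.002 in B0, 0.19 ± 0.06 in BA10 and 0.28 ± 0.12 in BA50. The ratio of Papolb to Papola was 1.53 ± 0.41 in A0 and 1.26 ± 0.35 in B0, and that of Pabpc2 to Pabpc1 was 0.16 ± 0.02 and 0.15 ± 0.03, both within the spread (SD, n = 3).

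**Figure D4:**
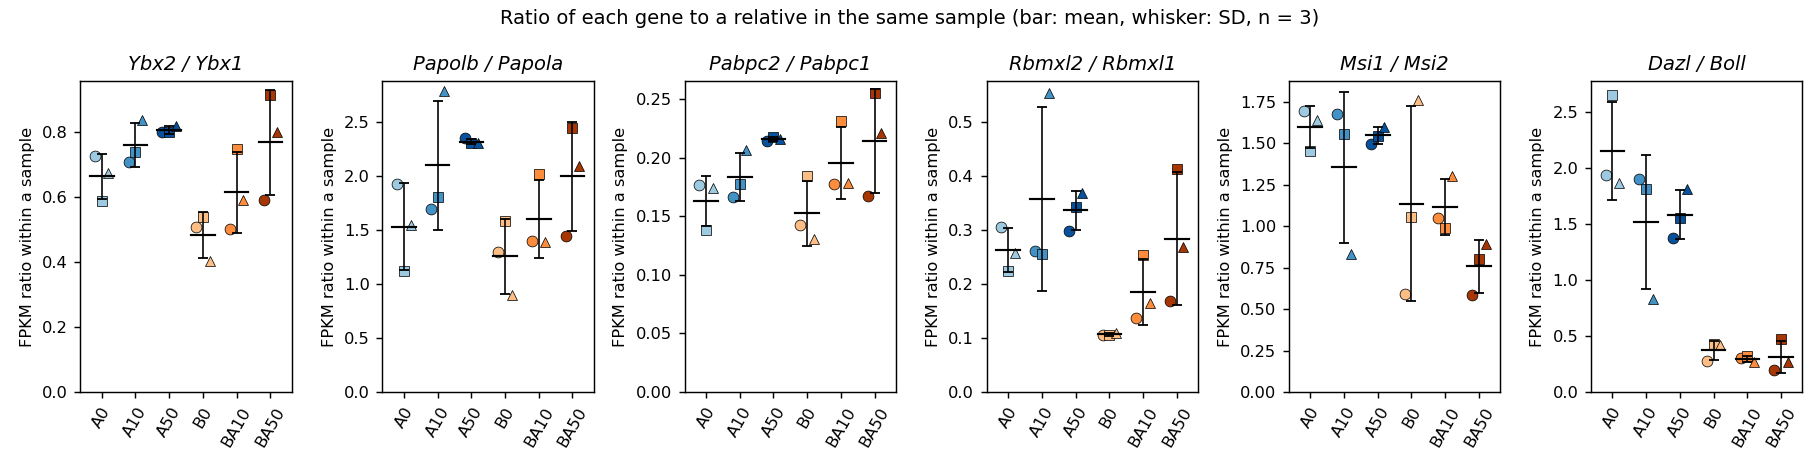
FPKM of a member divided by that of a relative in the same sample, for 6 pairs; points are samples by replicate, bars means, whiskers SDs (n = 3). Rbmxl2 against Rbmxl1 was lowest in the 3 B0 samples (0.11), and Dazl against Boll was at 0.47 or below in all busulfan samples.

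The list of mRNAs that DAZ and storage proteins are known to act on had 10 genes, all tested. Of these, Sycp1, Sycp3, Ddx4 and Hmgb2 were called lower on average, beside 3.52% of all genes. Sycp1 and Sycp3 are also spermatocyte markers here, and Prm1, Prm2, Tnp1 and Tnp2 spermatid markers. Their values and the marker sums are therefore not separate observations. Sycp3, a synaptonemal complex component and a Dazl target, was 109 to 116 FPKM in A0 and 9.19 to 13.4 FPKM in B0 (average log2 difference -3.28, SE 0.10, limma adjusted p = 3.03e-12). The spermatid mRNAs that are stored under Y-box proteins did not pass: Prm1 differed by 0.38 (adjusted p = 0.122), Prm2 by 0.42 (adjusted p = 0.144), Tnp1 by 0.33 (adjusted p = 0.178), Tnp2 by 0.34 (adjusted p = 0.152), Pgk2 by 0.01 (adjusted p = 0.958) and Ace by 0.16 (adjusted p = 0.153). These averages join unlike values: Prm1 differed by -0.12 in B0 against A0, 0.35 in BA10 against A10 and 0.93 in BA50 against A50. Prm2, Tnp1, Tnp2, Pgk2 and Ace also had negative differences in B0 against A0 and their highest in BA50 against A50. None of these passed a limma adjusted p of 0.05. In BA50 against B0, Prm1 differed by 1.25, Prm2 by 1.56, Tnp1 by 1.10 and Tnp2 by 1.19, at limma adjusted p of 0.102, 0.101, 0.111 and 0.102, none past 0.05.

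Of the 35 other genes of translation and mRNA control, 31 were tested and 5 were called lower on average, Elavl2, Ptbp2, Rbm44, Rbm46 and Meioc, beside 3.52% of all genes. Meioc, which keeps meiotic cells in prophase, was 22.3, 16.9 and 22.6 FPKM in A0 and 3.19, 5.38 and 3.07 FPKM in B0 (average log2 difference -2.14, SE 0.14, adjusted p = 1.1e-08). Ptbp2, a splicing regulator of germ cells, was 24.2, 19.97 and 26.9 FPKM in A0 and 13.03, 15.1 and 12.8 FPKM in B0 (-1.04, adjusted p = 4.63e-09). At an adjusted p of 0.05, 17 of the 31 were lower and 2, Eif4g1 and Paip2, were higher, beside 24.8% lower and 13.3% higher of all genes.

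The members did not all vary together across samples. For Boll, Ddx25, Ybx2, Ybx3, Papolb and Pabpc2, a group chosen after their values were seen, the correlation of log2(FPKM + 1) between pairs was 0.899 to 0.989 over the 9 untreated samples and 0.962 to 0.999 over the 9 busulfan samples. Dazl correlated with these 6 and Rbmxl2 at -0.37 to 0.04 over the 9 untreated samples, at 0.57 to 0.79 without A10 replicate 3, and at 0.60 to 0.77 over the 9 busulfan samples. Samples share their library and tissue composition, so these correlations are descriptions only. Replicate 2 of B0, of BA10 and of BA50 held the highest value of its group for Dazl, Boll, Ddx25, Ybx2, Ybx3, Papolb and Pabpc2 (and, in BA10 and BA50, for Rbmxl2). It also held the highest spermatocyte and the highest spermatid marker sum of its group.

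Over all 18 samples the genes whose pattern was most like Dazl were Nxf2 (r = 0.991), Taf7l and Gm364, and most like Boll were Dnah1 (r = 0.993), Trmt10a and Plk4. For Ddx25 they were Asrgl1 (r = 0.996), Ldhc and Trim69, and for Pabpc2 Ddx25 itself (r = 0.995), Nasp and Trim69. For Ybx2 they were Limd2 (r = 0.997), Ggnbp1 and Ccdc181, for Ybx3 an unnamed gene model of the authors (r = 0.994), Dynlt1f and Fank1, and for Papolb Fbxw10 (r = 0.993), Fhl4 and Gk2. The nearest genes to Rbmxl2 were Zmiz2 (r = 0.953), Gemin5 and Cib1, to Msi1 Mov10 (r = 0.916), Smarcal1 and Lrp11, and to Cpeb1 Klhl23 (r = 0.90), an unnamed gene model and Tmem131. Within the 9 busulfan samples Nxf2, Taf7l and Gm364 correlated with Dazl at 0.902, 0.814 and 0.825. Within the 9 untreated samples they did so at 0.791, 0.857 and 0.889, and without A10 replicate 3 at 0.261, 0.577 and 0.529.

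Against summed markers, Msi1 went with the Sertoli cell markers, at r = 0.967 over the 9 untreated samples, 0.928 without A10 replicate 3 and 0.817 over the 9 busulfan samples. For Ybx2 the correlation with the spermatocyte markers was 0.676 over the 9 untreated samples, 0.912 without A10 replicate 3 and 0.833 over the 9 busulfan samples, and that with the spermatid markers was 0.672, 0.549 and 0.832. BA50 replicate 2 held 523 FPKM of Ybx2 at a spermatocyte sum of 85.8 FPKM, beside 283 FPKM at a sum of 262 FPKM in A0 replicate 2. For Dazl the correlation with the spermatocyte markers was 0.447 over the 9 untreated samples, 0.861 without A10 replicate 3 and 0.804 over the 9 busulfan samples. Cpeb1 ran against the spermatid markers in the busulfan samples, at r = -0.82.

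**Figure D5:**
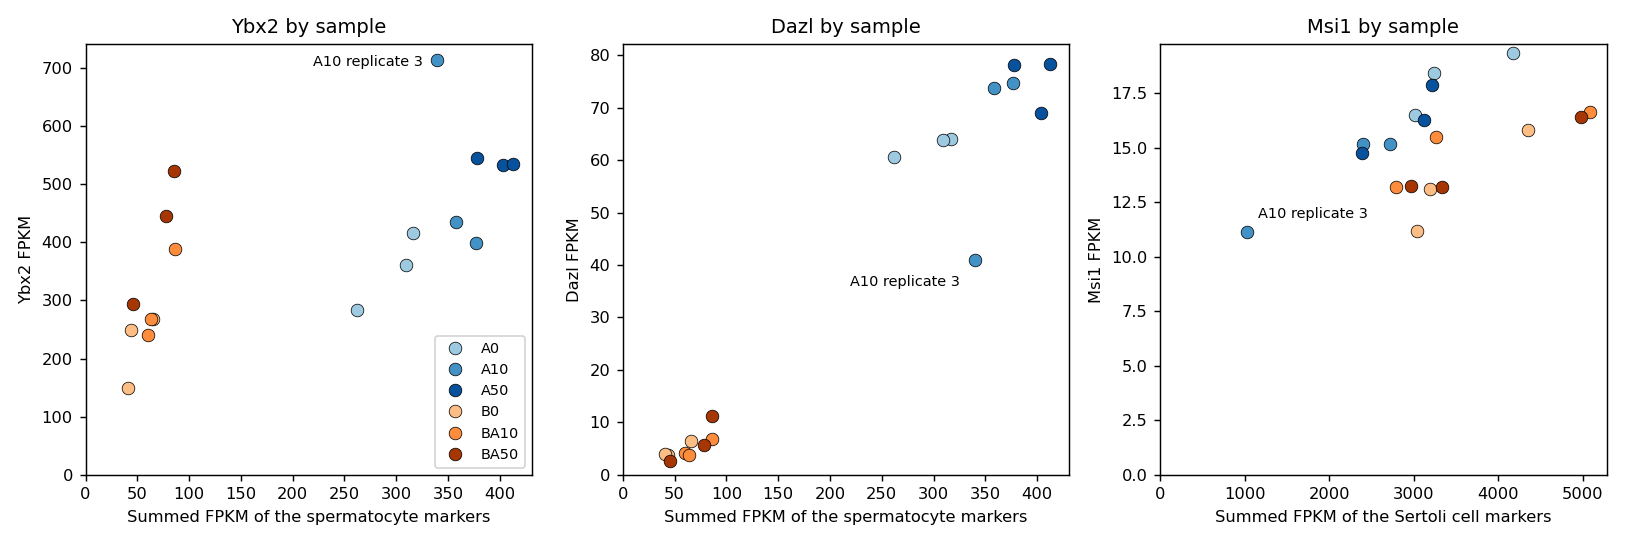
FPKM of Ybx2, Dazl and Msi1 in each sample against the summed FPKM of the spermatocyte markers (Ybx2 and Dazl) or the Sertoli cell markers (Msi1); colours are the 6 groups and A10 replicate 3 is named. Ybx2 spanned 149.9 to 523 FPKM in busulfan samples whose spermatocyte sum was at most 86.6 FPKM, whereas Dazl was at most 11.2 FPKM in the same samples.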

How the data were processed

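Gene-level FPKM values of 18 cultured mouse testis samples were used as deposited. The submitters' processing notes name HISAT, Bowtie2, RSEM and the build GRCm38.p5, while the study's supplementary methods name SOAPaligner and RPKM; the deposited columns are headed FPKM, and which steps made them is not given in the sources used here. FPKM keeps no read counts and RSEM estimates need not be whole, so the depth is unknown and no counting interval is given. The series' design text gives AOS in mg/kg, and the labels give µg/mL, which are used here.

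The 10 members, the relatives, the targets, the translation genes and the markers were chosen with earlier results of these data known. Genes with at least 1 FPKM in 3 or more samples were tested with limma 3.58.1 in R 4.3.3 (empirical Bayes with trend, log2(FPKM + 1), 6 group coefficients, 12 residual degrees of freedom) and adjusted by Benjamini-Hochberg. Exact two-sided permutation tests used 20 arrangements per pair of groups. Named genes were all members, relatives and targets, and translation genes called in any comparison. The 3 genes most correlated with each member over 18 samples were named too. Stra8, Sall4, Dmrt1, Eif4g1 and Paip2 were named after their values were seen. The alternatives were a replicate block, fits of the compared groups only, a pseudocount of 0.1, no filter and a stricter filter, 2 scalings, no trend, 2 other call limits and leaving out each sample. The fit was tested on simulated data. The replicate block was fitted as an alternative for all comparisons. Same-numbered samples were compared as pairs only for BA50 and B0, where each of the 3 pairs correlated above 0.1 in its deviations from the group means. The labels give no basis for pairing. No samples held identical values. Windows of 50 and 100 bases were compared among GENCODE vM21 transcripts. Promoter entries on chromosome 18 were left out, so none was used for Pabpc2, and none was matched for Msi1. Of the listed genes, 1 relative and 4 translation genes did not pass the filter.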

Additional observations from a re-analysis of the deposited data

How the results depend on the processing

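Members called numbered 2 in each busulfan comparison and 0 in each AOS comparison. With the replicate block 1 member, Dazl, was called in B0 against A0 and 1, Dazl, in BA50 against A50. The block changed no call other than those of Rbmxl2 and Boll there. Deviations of same-numbered samples correlated above 0.1 in every pair only between BA50 and B0 (0.39 in all), and at -0.23 between B0 and A0. In B0 against A0, no filter, quantile normalization and a fit of only the groups compared each left 1, Dazl. Fitting only the groups compared left 0 in BA10 against A10 and 0 in BA50 against A50. An adjusted p limit of 0.05 gave 4 in BA10 against A10 and 7 on average. Leaving out 1 library gave 1 to 1 in B0 against A0, 1 to 2 in BA10 against A10 and 1 to 2 in BA50 against A50. The scalings added after seeing the data moved no count of members with groups apart by over 1.5 times.

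Direction changed in 67 of 840 values with 1 library left out and in 7 of 790 others, none of them called. For the difference of AOS changes (with busulfan minus without), scaling to equal sums gave 0.0462 for Pabpc2 and 0.0298 for Cpeb1 at 10 µg/mL and -0.0129 for Dazl at 50 µg/mL. Quantile normalization gave 0.0446 for Ybx2 and 0.0536 for Pabpc2 at 10 µg/mL, -0.0184 for Papolb at 50 µg/mL, and 0.0464 for Cpeb1 in B0 against A0. The cause was not tested. With 1 library left out, the difference at 10 µg/mL ran from -0.18 to 0.31 for Dazl, -0.35 to 0.11 for Ddx25, -0.33 to 0.19 for Ybx2, -0.16 to 0.24 for Papolb, -0.26 to 0.20 for Pabpc2 and -0.15 to 0.13 for Cpeb1. At 50 µg/mL it ran from -0.42 to 0.43 for Dazl, -0.26 to 0.12 for Boll, -0.26 to 0.20 for Ddx25, -0.19 to 0.16 for Ybx3, -0.16 to 0.24 for Papolb and -0.28 to 0.17 for Pabpc2. In A10 against A0 the range was -0.19 to 0.24 for Dazl, -0.0296 to 0.21 for Rbmxl2 and -0.23 to 0.0235 for Cpeb1. In BA10 against B0 it was -0.16 to 0.26 for Dazl and -0.26 to 0.0165 for Cpeb1, in BA50 against B0 -0.17 to 0.69 for Dazl and -0.0197 to 0.21 for Msi1, and in BA10 against A10 -0.21 to 0.0681 for Cpeb1 and -0.0134 to 0.21 for Msi1.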
